A study of Homo sapiens with 6 samples.

Results

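The 10 genes described here encode proteins that decide between survival and death of a cell or whose mRNAs have been tied to eIF4B in lymphoma. They are BCL2, MCL1, BCL2L1, BAX, XIAP, BIRC5, CFLAR, DAXX, ERCC5 and MYC. They were chosen by symbol, and all 10 were listed in both iCLIP tables, among 13153 protein-coding genes in DoHH-2 and 10148 in GM01953. iCLIP maps, at single nucleotides, where a protein was cross-linked to RNA by UV, here eIF4B, an RNA-binding protein that stimulates the helicase eIF4A during translation initiation. The study compared DoHH-2, a diffuse large B-cell lymphoma (DLBCL) line that is known to carry the translocation joining BCL2 to the immunoglobulin heavy chain locus, with GM01953, a control B-cell line from people without the disease. The labels give no treatment for iCLIP, and each group is a single line, so that a difference between them is a difference between these lines. The labels give 4 replicates for DoHH-2 and 2 for GM01953, but the deposited values pool the replicates of a line. Every gene therefore has a single value per line, no SD and no test between the lines can be given, and intervals cover counting error only.

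DoHH-2 held 2033156 cDNA counts at 1179243 cross-link positions and GM01953 held 167197 counts at 78474 positions, a depth ratio of 12.2. Levels are given as CPM, the cDNA count of a gene scaled by all counts of the line to 1000000. RNA levels were not analysed here, so more eIF4B on each mRNA and more mRNA cannot be told apart. The B-cell identity of the lines was checked on 7 B-cell markers. All 7 were listed in GM01953, with 3971 CPM in sum, and 6 in DoHH-2, with 889 CPM in sum. CD74, the invariant chain of MHC class II and the most abundant of them, had 503 CPM in DoHH-2 and 2147 CPM in GM01953, and PAX5, the B-cell identity factor, had 272 and 347 CPM. MS4A1, which encodes CD20, had 6.39 CPM in DoHH-2 against 909 CPM in GM01953, and CD22 had no position in DoHH-2. Of 7 genes of activated or EBV-transformed B cells, all were listed in GM01953, with 1298 CPM in sum, and 4 in DoHH-2, with 139 CPM in sum. Of 7 germinal centre markers, 6 were listed in DoHH-2 with 434 CPM in sum, and 5 in GM01953 with 311 CPM. BCL6 led in both, with 243 and 233 CPM, and MME, which encodes CD10, had 172 CPM in DoHH-2 against 17.9 CPM in GM01953. All 39 BCL6 counts of GM01953 lay at 2 positions. From counts on its mRNA only, BCL6 had 48.6 CPM per kb in DoHH-2 and 12.7 in GM01953. MYBL1 had 14.8 and 5.98 CPM. The other way went S1PR2, with 3.44 CPM in DoHH-2 and 41.9 CPM in GM01953, and LMO2, with 0.492 and 12.0 CPM, both on few counts. T-cell, myeloid and erythroid markers held 1 count in all in DoHH-2 and none in GM01953, and epithelial markers held 3 and 1. How far these differences between the lines account for those of the survival genes was not tested.

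Apoptosis through mitochondria is set by the BCL2 family. BCL2, MCL1 and BCL2L1 (BCL-XL) hold back the pore-forming effectors BAX and BAK, and BH3-only proteins relieve that block. Further downstream, inhibitor of apoptosis proteins such as XIAP act on caspases, and CFLAR (c-FLIP) blocks caspase-8 at death receptors. Germinal centre B cells normally keep BCL2 low, and its retention is a hallmark of follicular lymphoma and of part of DLBCL.

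Some of the sequences that carried strong eIF4B cross-links are shown first, since the positions below refer to them. Each is 21 nt of the mRNA strand read 5′ to 3′ from GRCh38, with the cross-linked base in capitals and 10 nt to each side. The highest position on the MANE Select mRNA of BCL2 in DoHH-2 lay in its 3′ UTR, at chr18:63128356-63128376 on the minus strand, in an AU-rich stretch.
BCL2, 3′ UTR, DoHH-2: aagatttattTatttaagaca
The highest position of BCL2 in GM01953 lay 1559 nt past the stop codon, against 259 nt for the base above, at chr18:63127056-63127076 on the minus strand.
BCL2, 3′ UTR, GM01953: atatgggggtTatctgtacat
A further BCL2 position, at chr18:63318953-63318973 on the minus strand, held the highest BCL2 count of all in DoHH-2 and lay at the 3′ end of the 221 nt intron in the MANE Select 5′ UTR, which is exonic in another transcript.
BCL2, 5′ UTR intron, DoHH-2: gttttttcttTaacctttcag
The highest DoHH-2 positions of 3 other members are given next, as they lie in 3 different regions. All sequences shown are centred on a T, as were 42.4% of the members' positions on the mRNA in DoHH-2, so they do not stand for the other bases. MCL1 was highest in its 3′ UTR at chr1:150576075-150576095 on the minus strand, and BCL2L1 in its 5′ UTR at chr20:31722306-31722326 on the minus strand. BAX was highest in its CDS at chr19:48956255-48956275 on the plus strand.
MCL1, 3′ UTR: cttaataaatTataaaatgat
BCL2L1, 5′ UTR: ttatcttggcTttggatctta
BAX, CDS: tgacatgtttTctgacggcaa
The highest positions of XIAP, CFLAR and ERCC5 held 3, 3 and 5 counts and are not shown.

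eIF4B cross-links on the 10 genes were dominated by BCL2 and MYC. Together the members held 6169 counts at 4076 positions in DoHH-2 (3034 CPM) and 338 counts at 187 positions in GM01953 (2022 CPM). Of the members' counts, BCL2 held 53.3% in DoHH-2 and 34.6% in GM01953. With MYC it held 72.4% and 58.3%. By count, BCL2 ranked 39 of 13153 protein-coding genes in DoHH-2 and 85 of 10148 in GM01953, and MYC ranked 125 and 155. MCL1 and BIRC5 ranked 462 and 472 in DoHH-2. The lowest members, XIAP and ERCC5, lay near the middle of all coding genes, with 50.3% and 51.5% of genes below them. The median member had 180 counts in DoHH-2 and 17 in GM01953, beside 55 and 6 for the median coding gene.

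Cross-link positions past a false discovery rate (FDR) of 0.05 are called eIF4B binding sites here, and genes with over 20 counts at their sites are called bound. All 10 members had a site in DoHH-2, beside 67.4% of listed protein-coding genes, and 8 had one in GM01953, beside 70%. In DoHH-2, 7 of the 10 members were bound, beside 33.3% of all listed protein-coding genes. They were BCL2 (1862 counts at 907 sites), MYC (716 counts at 222 sites), BIRC5 (319 at 136 sites), MCL1 (112 at 43 sites), BAX (65 at 32 sites), DAXX (61 at 22 sites) and BCL2L1 (25 at 14 sites). The sites of ERCC5 held 12 counts, and those of XIAP and CFLAR held 7 each. In GM01953, 3 of the 10 were bound, beside 8.34% of listed protein-coding genes. These were BCL2 (91 counts at 33 sites), MYC (46 counts at 16 sites) and BIRC5 (39 counts at 15 sites). Without an FDR threshold all 10 members had more than 20 counts in DoHH-2, where the median listed protein-coding gene had 55. With DoHH-2 counts divided by the depth ratio and no FDR threshold, an alternative chosen after seeing the data, 4 members would hold more than 20 counts, as 4 did in GM01953. They were BCL2, MYC, MCL1 and BIRC5 in both cases, with 270, 97.0, 42.7 and 42.2 scaled counts in DoHH-2 and 117, 80, 25 and 53 counts in GM01953. The shares of all coding genes past 20 counts without an FDR threshold are not given here, so these numbers are no result about the members.

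**Figure D1:**
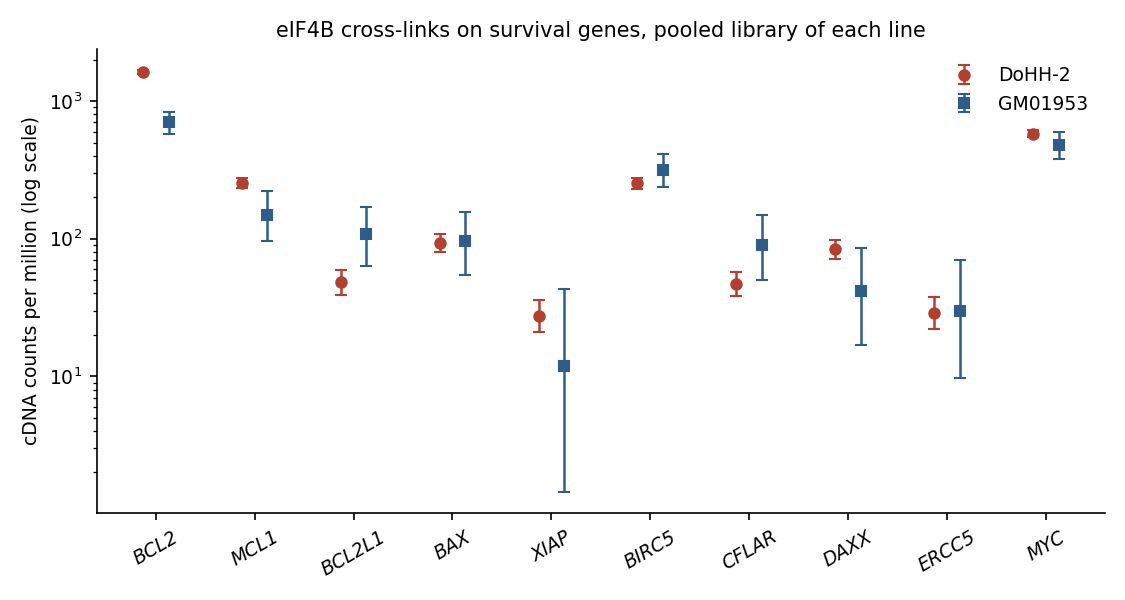
eIF4B cross-links on the 10 survival genes as cDNA counts per 1000000 on a log axis, with circles for the pooled DoHH-2 library and squares for the pooled GM01953 library, and bars for exact Poisson 95% intervals that cover counting error only. BCL2 stood at 1618 CPM in DoHH-2 and 700 CPM in GM01953, while the intervals of the lines did not overlap for BCL2, MCL1 and BCL2L1 and overlapped for the other 7.

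BCL2, the founding survival protein of the family (ENSG00000171791, chr18:63123346-63320128, minus strand), had 3289 counts in DoHH-2, or 1618 CPM (95% interval 1563–1674), and 117 counts in GM01953, or 700 CPM (579–839). The ratio of DoHH-2 to GM01953 was 2.31 (1.92–2.80), and the interval leaves out 1. Of its counts, 2050 lay on the MANE Select mRNA (ENST00000333681, 6881 nt in 3 exons) in DoHH-2 and 70 in GM01953. The 3′ UTR held 68.9% of them in DoHH-2 (66.9–70.9), a region that makes up 76.0% of the mRNA, and 42.9% (31.1–55.3) in GM01953. The 5′ UTR held 24.2% (22.4–26.2) in DoHH-2, on 12.1% of the mRNA, and 40.0% (28.5–52.4) in GM01953. Only 4.54% (3.68–5.53) lay in the CDS and 0.537% (0.268–0.958) within 50 nt of the start codon in DoHH-2. Of 5240 coding genes with at least 50 counts on the mRNA, 0.840% had a lower CDS share than BCL2 and 91.8% had a lower 5′ UTR share.

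Along the BCL2 3′ UTR, counts in DoHH-2 were spread over the whole length. The count was 396 in the first 1000 nt past the stop codon, then 337, 262, 208 and 168 in each further 1000 nt, and the last count lay 5259 nt past the stop codon, 20 nt before the annotated end. The strongest stretch of 50 nt, with 101 counts, began 944 nt past the first base of the start codon and held 4.93% of the counts on 0.727% of the mRNA. It holds the AU-rich sequence shown above, whose central base had 13 counts in DoHH-2 and none in GM01953. In GM01953 only 70 BCL2 counts lay on the mRNA, at 35 positions, against 2050 at 1235 positions in DoHH-2. The spread was not compared at equal depth. A single position with 14 counts, the second sequence above, held 20% of its BCL2 counts on the mRNA, and the third 1000 nt past the stop codon held none. The same base had 1 count in DoHH-2, but the base 2 nt upstream of it had 12, so that both lines were cross-linked at this place within 2 nt. Without the highest position of each line, a choice made after seeing the data, the ratio of BCL2 was 2.61 (2.15–3.21).

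**Figure D2:**
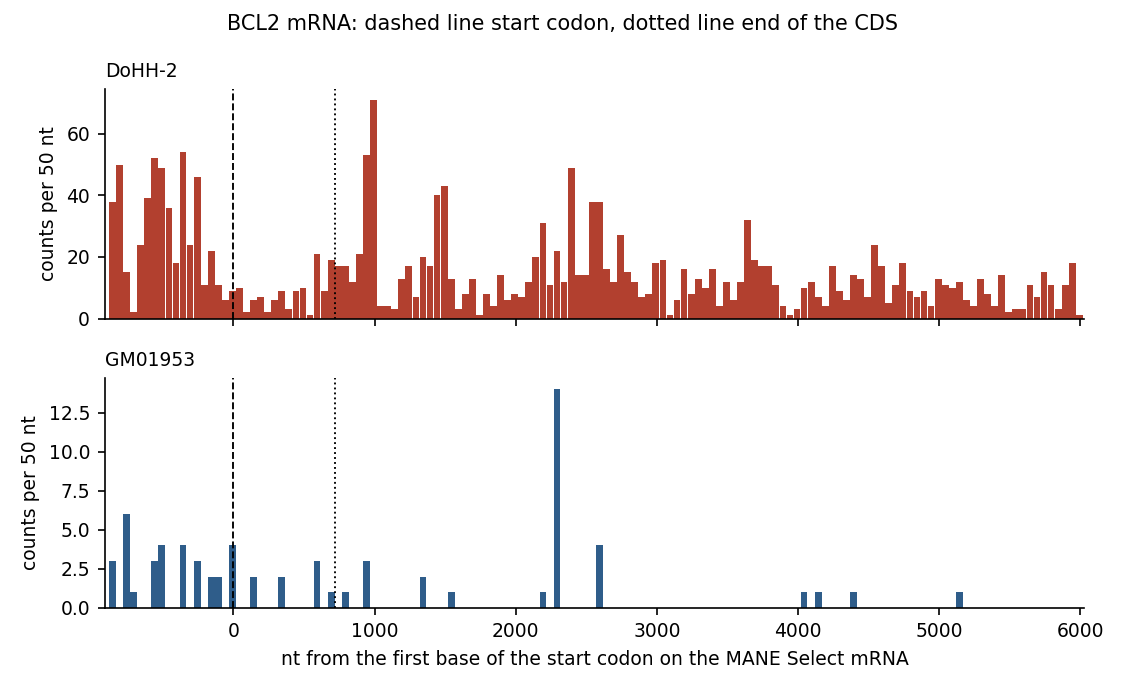
cDNA counts per 50 nt along the MANE Select mRNA of BCL2, with the distance from the start codon in nt on the x axis, DoHH-2 above and GM01953 below on separate count scales. DoHH-2 counts fill the 5′ UTR and the 3′ UTR with few in the CDS, whereas a single GM01953 position in the 3′ UTR reaches 14 counts.

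A large part of BCL2 cross-links lay outside the MANE Select exons, in introns or in exons of other transcripts. Off the MANE Select exons were 1239 of 3289 counts in DoHH-2, or 37.7% (36.0–39.4), and 47 of 117 in GM01953, or 40.2% (31.2–49.6). Exons of other annotated transcripts took up 341 of these in DoHH-2 and 12 in GM01953. The other 898 and 35 counts lay only in introns, at 782 and 16 positions. Spread over 184171 nt of intron, this was 4.88 counts per kb in DoHH-2, against 298 counts per kb of MANE Select exon. In DoHH-2 the intron counts were mostly scattered, since 113 of 898 lay at sites with an FDR below 0.05. In GM01953, 27 of 35 did, but the lines differ 12.2-fold in depth and were not compared at equal depth. Of all BCL2 counts, 56.6% lay at sites in DoHH-2 and 77.8% in GM01953. The small intron in the 5′ UTR stood apart, with 112 counts on 221 nt in DoHH-2, 15 of them at the base shown above, and none in GM01953. The 189322 nt intron between the coding exons held 1046 counts in DoHH-2 and 40 in GM01953. Among the other 9 members together, 11.0% (9.89–12.2) of counts lay off the MANE Select exons in DoHH-2, and the share was 21.1% for all protein-coding genes with such an mRNA.

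MCL1, a short-lived survival protein (ENSG00000143384, chr1:150560895-150579738, minus strand), had 519 counts in DoHH-2, or 255 CPM (234–278), and 25 in GM01953, or 150 CPM (96.8–221). The ratio was 1.71 (1.14–2.66) on all counts and 1.45 (0.971–2.26) when counts on its mRNA were set against all counts on such mRNAs, where the interval holds 1. On the mRNA, 490 counts were found in DoHH-2, and 57.3% (52.8–61.8) of them lay in the 3′ UTR. That region makes up 70.1% of the mRNA. The densest place was the 5′ end. From nt 5 to nt 54 of the mRNA, within its 80 nt 5′ UTR, lay 63 counts, or 12.9% of the total on 1.27% of the length. GM01953 had 2 of its 25 counts in the 5′ UTR region and 12 in the CDS, too few to place a peak. The 3′ UTR sequence shown for MCL1 had 9 counts at its central base in DoHH-2 and none in GM01953.

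BCL2L1 (ENSG00000171552, chr20:31664452-31723989, minus strand) went the other way between the lines. It had 98 counts in DoHH-2, or 48.2 CPM (39.1–58.7), and 18 in GM01953, or 108 CPM (63.8–170). Its ratio was 0.448 (0.269–0.787), and the interval leaves out 1. Without the highest position of each line it was 0.517 (0.292–0.984), and counting positions in place of cDNAs it was 0.699, both short of 2-fold. It was 0.412 (0.232–0.789) with mRNA counts set against all such counts and 0.175 at sites, on 25 and 15 counts. The 5′ UTR region held 32.1% (21.9–43.6) of 78 mRNA counts in DoHH-2, more than in 95.5% of the coding genes compared, and 4 of 14 in GM01953. In DoHH-2 the base shown above, 98 nt before the start codon, had 10 counts, and 16 counts (20.5%) lay within its 21 nt. The highest position of GM01953, with 4 counts, lay 51 nt before the start codon, also in the 5′ UTR, and DoHH-2 had none at that base. The lines shared 1 identical BCL2L1 position, in the start codon region, with 1 count in DoHH-2 and 2 in GM01953.

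BAX, the effector that opens the mitochondrial outer membrane (ENSG00000087088, chr19:48954815-48961798, plus strand), had nearly the same level in both lines. The 190 counts in DoHH-2 were 93.5 CPM (80.6–108) and the 16 counts in GM01953 were 95.7 CPM (54.7–155), a ratio of 0.977 (0.586–1.74). Such an interval does not show that the levels are equal. BAX has a short mRNA of 795 nt, and 63.4% (54.9–71.3) of its 142 mRNA counts in DoHH-2 lay in the CDS and 14.8% (9.39–21.7) within 50 nt of the stop codon. These regions make up 59.9% and 12.6% of the mRNA. In GM01953, 9 of 10 mRNA counts lay in the CDS. The highest base had 9 counts in DoHH-2, 300 nt past the first base of the start codon, and the highest of GM01953, with 3 counts, lay 4 nt before it. Off the MANE Select exons lay 48 BAX counts in DoHH-2, 44 of them in exons of other transcripts.

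Among the inhibitor of apoptosis proteins, BIRC5 and XIAP differed in level. BIRC5 (survivin), which also serves in the chromosomal passenger complex at mitosis (ENSG00000089685, chr17:78214186-78225636, plus strand), had 513 counts in DoHH-2, or 252 CPM (231–275), and 53 in GM01953, or 317 CPM (237–415). The ratio was 0.796 (0.599–1.08), which holds 1. With mRNA counts set against all such counts it was 0.697 (0.524–0.944), so the interval left out 1 there. The 3′ UTR held 63.3% (58.9–67.6) of BIRC5 mRNA counts in DoHH-2 and 66.0% (51.7–78.5) in GM01953. This region makes up 79.0% of the mRNA, and in DoHH-2 it held 155 counts per kb against 353 in the CDS. In DoHH-2, 83 counts (16.6%) lay in 50 nt of the 3′ UTR. The highest BIRC5 position had 24 counts, the most at any position of the 10 genes. The start codon region of BIRC5 held 8.82% (6.48–11.7) of counts in DoHH-2 and 13.2% (5.48–25.3) in GM01953. The CDS held 23% (19.4–27.0) in DoHH-2 and 5.66% (1.18–15.7) in GM01953, where the intervals did not overlap. Near the stop codon lay 4.61% (2.94–6.84) and 15.1% (6.75–27.6), with intervals that overlapped by little.

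XIAP, the caspase inhibitor (ENSG00000101966, chrX:123859712-123913972, plus strand), had 56 counts in DoHH-2, or 27.5 CPM (20.8–35.8), and 2 in GM01953, or 12.0 CPM (1.45–43.2), both in introns. The ratio was 2.30 with an interval from 0.608 to 19.5. On its 8558 nt mRNA, 51 counts in DoHH-2 gave 2.93 CPM per kb, lower than in the median coding gene (4.79). No base had more than 3 counts. CFLAR (ENSG00000003402, chr2:201116154-201176687, plus strand) had 96 counts in DoHH-2, or 47.2 CPM (38.2–57.7), and 15 in GM01953, or 89.7 CPM (50.2–148), a ratio of 0.526 (0.304–0.977). Its mRNA has a 3′ UTR of 12714 nt, on which only 26 counts fell in DoHH-2, and 45.8% (35.6–56.3) of its counts lay off the MANE Select exons. On that measure of mRNA counts the ratio of CFLAR was 0.770 (0.310–2.47). Without the highest position of each line it was 0.588 (0.328–1.15), and both of these intervals hold 1. At sites the ratio was 0.122, on 7 counts in DoHH-2 and 6 in GM01953.

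DAXX and ERCC5 encode a histone H3.3 chaperone that also binds Fas and the XPG endonuclease of nucleotide excision repair. DAXX (ENSG00000204209, chr6:33318558-33323016, minus strand) had 170 counts in DoHH-2, or 83.6 CPM (71.5–97.2), and 7 in GM01953, or 41.9 CPM (16.8–86.3). The ratio was 2.00 (0.948–5.04), just under the 2-fold threshold before rounding. It was 2.40 (1.01–7.49) with mRNA counts set against all such counts and 2.57 (1.08–8.01) without the highest position of each line, both over 2-fold with intervals that leave out 1. Counting positions in place of cDNAs it was 1.60, under 2-fold. The CDS, which makes up 82.9% of the DAXX mRNA, held 72.2% (64.7–79.0) of 162 mRNA counts in DoHH-2 and 4 of 5 in GM01953. Per kb the 3′ UTR was higher in DoHH-2, with 167 counts per kb against 55.2 in the CDS. The highest DAXX position had 14 counts in DoHH-2, also in the CDS. ERCC5 (ENSG00000134899, chr13:102845831-102875995, plus strand) had 59 counts in DoHH-2, or 29.0 CPM (22.1–37.4), and 5 in GM01953, or 29.9 CPM (9.71–69.8), a ratio of 0.970 (0.393–3.10). Without the highest position of each line the ratio of ERCC5 was 1.48 (0.480–7.40). At sites it was 0.419, on 12 counts in DoHH-2 and 3 in GM01953, so its direction depended on the measure. The CDS of ERCC5 held 39 of its 45 mRNA counts in DoHH-2 and all 4 in GM01953. Every ERCC5 position was also listed under the readthrough gene BIVM-ERCC5, at 51 positions in DoHH-2 and 4 in GM01953, so the transcripts cannot be told apart.

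MYC, the growth-promoting transcription factor (ENSG00000136997, chr8:127735434-127742951, plus strand), was the second most cross-linked member. It had 1179 counts in DoHH-2, or 580 CPM (547–614), and 80 in GM01953, or 478 CPM (379–596), a ratio of 1.21 (0.966–1.54). Without the highest position of each line the ratio was 1.32 (1.04–1.70), an interval that leaves out 1. With mRNA counts set against all such counts it was 1.03 (0.815–1.32), at sites it was 1.63, and counting positions it was 0.871, so the direction for MYC depended on the measure. The intervals of its regional shares overlapped between the lines. The 3′ UTR held 47.5% (44.4–50.6) in DoHH-2 and 49.3% (37.6–61.1) in GM01953, the CDS held 34.1% (31.2–37.1) and 33.3% (22.9–45.2), and the 5′ UTR held 14.1% (12.0–16.3) and 16% (8.55–26.3). The 3′ UTR counts of MYC were confined to its beginning. The last count lay 436 nt past the stop codon in DoHH-2 and 335 nt in GM01953, although the annotated 3′ UTR runs for 1993 nt. An annotated 3′ end of another MYC transcript lies 40 nt beyond the last DoHH-2 count. From the stop codon region to that last count, 389 nt held 496 counts, or 1275 counts per kb. The densest 50 nt, 1553 nt past the first base of the start codon, held 175 counts or 16.8% in DoHH-2, and the highest base there had 22 counts, with none in GM01953. The base with the highest GM01953 count, 8, had 4 counts in DoHH-2.

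Because the mRNAs differ in length, levels between genes were compared as CPM per kb of mRNA, from mRNA counts. In DoHH-2 the order was BCL2 (147), MYC (138), BIRC5 (95.4), BAX (87.9), MCL1 (61.0), DAXX (31.1), BCL2L1 (14.9), ERCC5 (5.69), XIAP (2.93) and CFLAR (1.75). BCL2 and MYC did not differ beyond counting error (ratio 1.06, 0.985–1.15), nor did BIRC5 and BAX (ratio 1.09, 0.899–1.32). Every other neighbouring pair did. Over the stretch up to the last count only, MYC had 237 and BCL2 147 CPM per kb, a ratio of 1.61 (1.5–1.74), so this order depends on the annotated length of MYC. In GM01953, BIRC5 (123) and MYC (121) led, followed by BAX (75.2), BCL2 (60.8), MCL1 (37.9) and BCL2L1 (32.5). Of the 9 neighbouring pairs in GM01953, only BCL2 and MCL1 differed beyond counting error (ratio 1.61, 1.01–2.65). The median member stood at 46.1 in DoHH-2 and 35.2 in GM01953, beside 4.79 and 7.0 for the median coding gene.

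**Figure D3:**
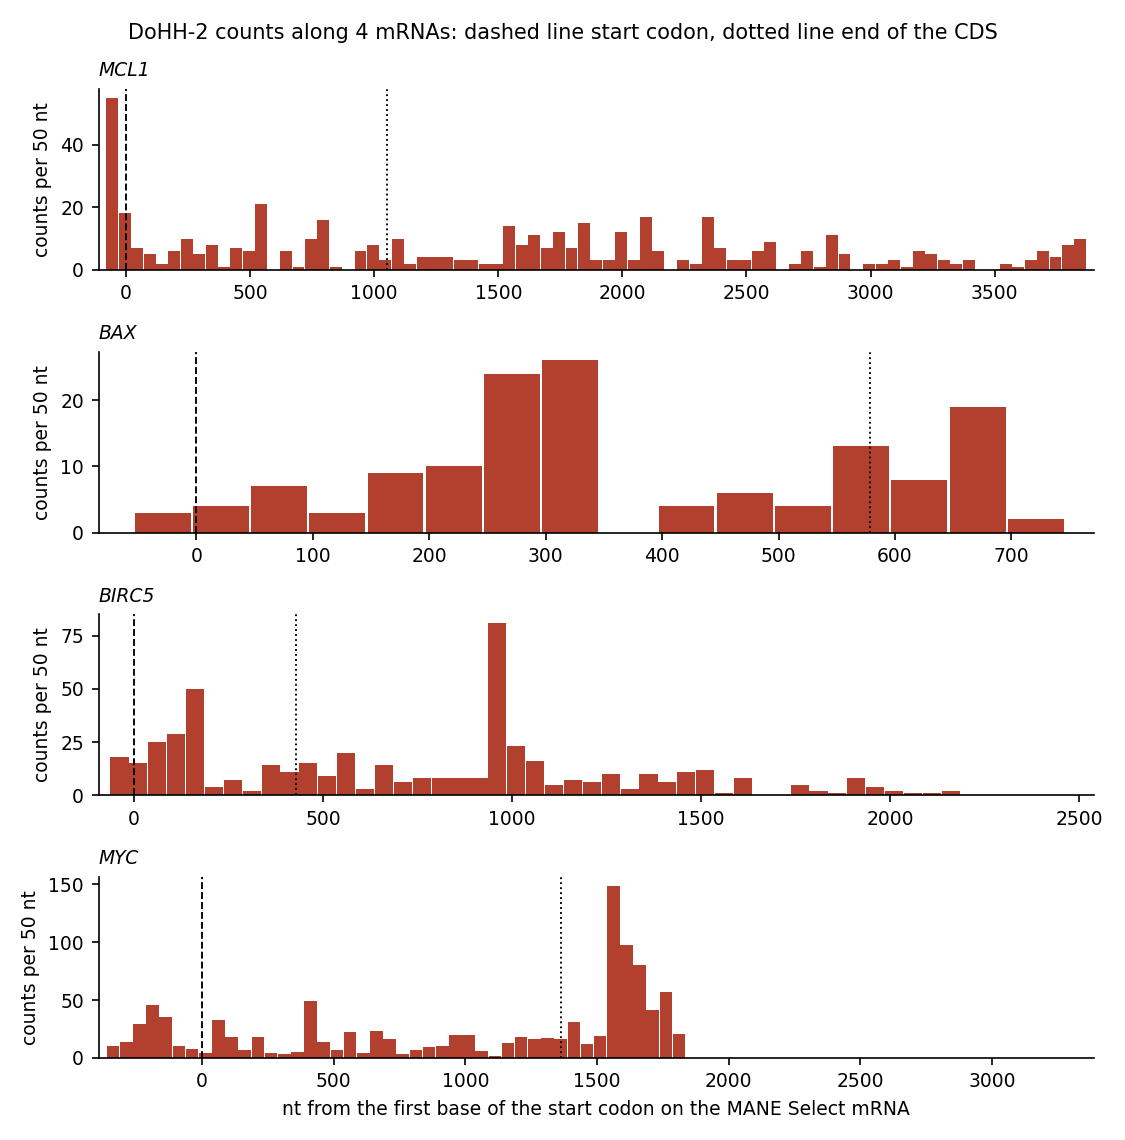
DoHH-2 counts per 50 nt along the MANE Select mRNAs of MCL1, BAX, BIRC5 and MYC, with the distance from the start codon in nt on the x axis and a separate count scale for each gene. MCL1 peaks at its 5′ end, BAX in the CDS, and BIRC5 and MYC in the 3′ UTR, where no MYC count lies more than 436 nt past the stop codon.

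The region of the mRNA that held the cross-links differed widely between the members. In sum, 57.1% (55.7–58.5) of the members' mRNA counts lay in the 3′ UTR in DoHH-2 and 45.6% (39.4–51.8) in GM01953, beside 26.1% and 19.7% over all coding genes. BCL2 weighs heavily here. Without it the share was 47.6% (45.7–49.6) in DoHH-2 and 46.6% (39.4–53.9) in GM01953, with intervals that overlap. The 3′ UTR made up 66.1% of the members' mRNA and 48.3% of all coding mRNA. The stop codon region held 2.97% of the members' counts in DoHH-2 beside 17.4% of the summed counts of all coding genes. The median share there was 2.82% over 5240 coding genes with at least 50 mRNA counts, close to that of the members. Histone genes, by name, held 16.2% of all DoHH-2 counts, and their part in the stop codon share was not tested. Of the 9 members with at least 50 mRNA counts, BCL2, BIRC5 and MCL1 had the highest 3′ UTR shares, above those of 94.4%, 90.4% and 84.8% of coding genes. Their shares of 68.9%, 63.3% and 57.3% were each below the region's part of the mRNA length, at 76.0%, 79.0% and 70.1%. DAXX and BAX had the highest CDS shares, above those of 89.5% and 80.8% of coding genes, and BAX also had a stop codon share above 92.4%. The stop codon region held 14.8% of BAX counts on 12.6% of its short mRNA, and makes up 2.48% of all coding mRNA. BCL2L1, BCL2 and CFLAR had the highest 5′ UTR shares.

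**Figure D4:**
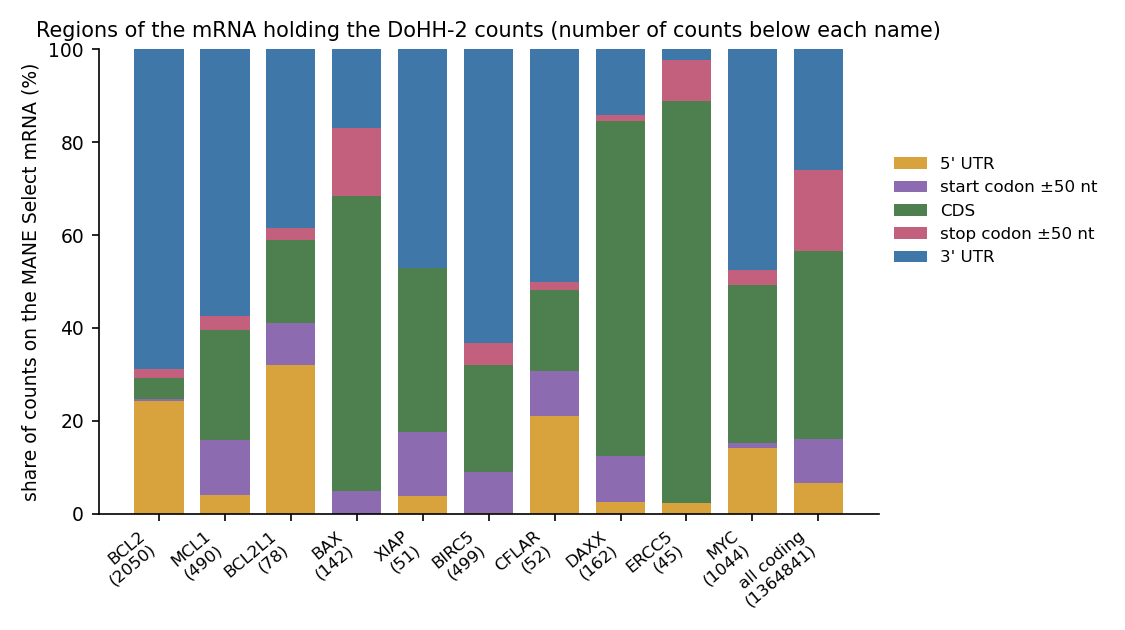
Share of DoHH-2 counts in 5 regions of the MANE Select mRNA for each member and for all coding genes, in percent, with the number of mRNA counts below each name. BCL2, MCL1 and BIRC5 hold most of their counts in the 3′ UTR, whereas BAX, DAXX and ERCC5 hold most in the CDS, the last on 45 counts.

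The genes with the most similar regional shares in DoHH-2, by the smallest sum of absolute differences over the 5 regions in this pooled library among 5239 other coding genes, were DAP and HMGA1 for BCL2, at 5.30 and 8.96 percentage points. For MYC they were VPS4B (3.71) and PAFAH1B1 (5.31), for MCL1 KCTD20 (2.45) and SRSF10 (4.27), and for BIRC5 SPC24 (3.11) and PHF6 (3.30). BCL2L1 was nearest to SAP30 (5.33) and PIM2 (7.33), and PIM2, with 546 mRNA counts, had 35.7% of them in the 5′ UTR. XIAP was nearest to SCAMP2 (6.01) and CFLAR to C18orf25 (5.29), both on few counts. DAXX was nearest to NSMAF (2.72) and TNKS1BP1 (3.70), and BAX to FXR1 (5.88) and PGD (7.61).

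Between the lines, members lay on both sides of a ratio of 1. Of the 8 members whose mean over both lines was at least 30 CPM, 1 (BCL2) was over 2-fold higher in DoHH-2, beside 20.3% of 6217 coding genes past the same filter. BCL2L1 was the 1 member over 2-fold lower, beside 18.7% of coding genes. The median log2 ratio of the 8 was 0.12, beside 0.06 for coding genes, and 4 of the 8 lay above a ratio of 1. The ratio of BCL2 was above that of 83.5% of coding genes and that of BCL2L1 was above 15.8%. XIAP and ERCC5 did not pass the filter. With 8 genes, 1 call in each direction is no result about the members as a group.

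A large share of the GM01953 positions on the members was also found in DoHH-2. Of 187 member positions in GM01953, 77 (41.2%) were the same base as a DoHH-2 position, which is 1.89% of the 4076 DoHH-2 positions, and 135 (72.2%) lay within 5 nt of one. Over all coding genes, 33.0% of GM01953 positions were identical and 55.9% lay within 5 nt. MYC (55.6%) and BIRC5 (51.9%) had the highest shares of identical positions, and for BIRC5 25 of 27 positions lay within 5 nt of a DoHH-2 position. These genes were also densely covered in DoHH-2, and the part of that density in the shares was not tested. In BCL2, 25 of 59 GM01953 positions were identical, among them a base in the CDS with 11 counts in DoHH-2 and 3 in GM01953.

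Cross-linked bases were rich in U. On the members' mRNAs, 42.4% of 2789 DoHH-2 positions and 47.1% of 140 GM01953 positions were at a T of the genome sequence (U in the RNA), on mRNAs with 26.9% and 26% T. The same held over all coding genes, at 41.2% and 38.4%. In the members' 3′ UTRs the share was 51.6% in DoHH-2 and in their CDS 30.5%. By gene, XIAP had the highest share in DoHH-2 (65.9% of 44 positions) and BAX and CFLAR the lowest (28.0% of 100 and 28.6% of 49). UV cross-linking is known to favour uridine, and its part in these shares was not tested. Windows of 11 nt around 3′ UTR positions held TTTT in 23.1% of cases in DoHH-2, against 8.84% of all windows of the same 3′ UTRs, and TTTTT, which contains TTTT, in 11.3% against 3.25%. For all coding genes the TTTT shares were 26.3% and 8.99%. The word ATTTA, the core of AU-rich elements that control mRNA decay, stood in 4.42% of the members' 3′ UTR windows against 1.55% of all their windows, and over all coding genes in 3.38% against 1.61%. GAGAGA or AGAGAG, a purine repeat, was in 3 of 2784 windows on the members' mRNAs. Only the transcribed strand was searched, overlapping windows share bases, and a match is a description of the sequence and not of a binding preference.

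The genes around the members were looked up in 10 lists of apoptosis, nucleotide excision repair and MYC network genes, with 81 genes besides the members. Of these, 73 were listed in DoHH-2 and 70 in GM01953, and 30 and 9 were bound. These are 41.1% and 12.9% of the listed genes, beside 33.3% and 8.34% of listed protein-coding genes. Past the filter of 30 CPM were 47 genes, of which 8 (17.0%) were over 2-fold higher and 12 (25.5%) over 2-fold lower in DoHH-2, beside 20.3% and 18.7% of coding genes.

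Among BH3-only genes, which trigger BAX and BAK, 7 of 8 were listed in DoHH-2 and 4 were bound. BCL2L11, which encodes BIM, had 180 CPM in DoHH-2 and 35.9 CPM in GM01953, a ratio of 5.0 (2.28–13.7), and BIK had 139 and 65.8 CPM, a ratio of 2.12 (1.16–4.29). PMAIP1 (NOXA), whose protein binds MCL1, had 120 and 209 CPM, a ratio of 0.576 (0.403–0.846). In the anti-apoptotic family, BCL2A1, an NF-κB target, had no position in DoHH-2 and 17 counts (102 CPM) in GM01953, at least 68.9-fold lower in DoHH-2 when 0 is taken as 3 counts in that line. BCL2L2 had 21 and 1 counts. The effector BAK1 had 15 and 4 counts, so BAX held most of the effectors' cross-links. Among inhibitor of apoptosis genes, BIRC3, another NF-κB target, had 29.0 and 227 CPM, a ratio of 0.128 (0.0835–0.197), and BIRC6 (267 and 197 CPM) and BIRC2 (34.9 and 53.8 CPM) had intervals that hold 1.

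In the apoptosome list, CYCS (cytochrome c) had 275 and 245 CPM, APAF1 had 55.6 and 53.8 CPM, and AIFM1 had 68.4 and 23.9 CPM with a ratio of 2.86 (1.09–10.6). Of 7 caspases, all were listed in both lines, and CASP2 (72.3 and 77.8 CPM) and CASP8 (59.5 and 29.9 CPM) passed the filter with intervals that hold 1. Around CFLAR, the TRAIL receptors TNFRSF10A (9.84 and 77.8 CPM) and TNFRSF10B (30 and 89.7 CPM) were over 2-fold lower in DoHH-2, and FADD, the death receptor adaptor, had 72 counts in DoHH-2 and none in GM01953, at least 1.97-fold higher. TRAF2 had 31.0 and 29.9 CPM. Of 10 genes in this list besides CFLAR, none was bound in either line.

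Around DAXX, its partner ATRX had 297 and 245 CPM and H3-3B, which encodes histone H3.3, had 369 and 233 CPM, a ratio of 1.58 (1.15–2.24). USP7 had 259 and 263 CPM. SP100, a component of PML bodies, had 45.7 and 383 CPM, a ratio of 0.119 (0.0860–0.167), and HIPK2 had 2 counts against 42 in GM01953, a ratio of 0.00392 (0.000459–0.0151). Around ERCC5, 20 of 20 repair genes were listed in DoHH-2 and 9 were bound. RAD23B (185 and 161 CPM), DDB1 (174 and 95.7 CPM) and RPA3 (142 and 53.8 CPM) were the most cross-linked in DoHH-2. ERCC3 had a ratio of 5.02 (1.69–24.5), ERCC8 of 4.15 (1.12–34.8) and RPA3 of 2.63 (1.37–5.81), while ERCC1 (0.419, 0.258–0.715), DDB2 (0.262, 0.130–0.571) and GTF2H1 (0.487, 0.269–0.956) were over 2-fold lower. From counts on its mRNA only, ERCC1 had 3.20 CPM per kb in DoHH-2 and 5.31 in GM01953, less than 2-fold apart. Around MYC, MGA had 244 and 167 CPM, MAX, the dimer partner of MYC, 88.0 and 53.8 CPM and the antagonist MXI1 81.2 and 35.9 CPM. MXI1 was over 2-fold higher (2.26, 1.02–6.25), and MLX (0.441, 0.229–0.931) and MXD3 (0.278, 0.123–0.707) were over 2-fold lower. MYCN had no position in either line, so MYC was the family member on which eIF4B cross-links were found, with MYCL at 14 counts in DoHH-2 only.

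Reads on the opposite strand of the members' mRNAs were few. Antisense to MANE Select exons lay 21 counts in DoHH-2 against 4613 sense counts (0.453%), 18 of them on BCL2, and none in GM01953 against 261 sense counts.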

How the data were processed

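eIF4B iCLIP was carried out by the authors in DoHH-2 (4 replicates in the labels) and GM01953 (2 replicates). Duplicates were removed, reads were aligned with HISAT2 (build GRCh38) and cDNAs per cross-link position were counted with iCount over the pooled replicates of a line. The deposited values are raw counts, without any scaling by depth. The deposited FDR (a p-value adjusted by permuting counts within the gene) was used for sites. Versions and the annotation release are not given in the sources used here.

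Positions count from 0 in the tables, judged from the bases around them on both strands, and are printed counted from 1. Positions listed under several genes were kept for each gene and counted once in totals. Of all counts, 10.3% (DoHH-2) and 16% (GM01953) had no gene. Positions were placed on MANE Select transcripts of GENCODE release 44, in 5 regions with codon regions of 50 nt to each side of the first base of the codon. Of the gene identifiers, 98.8% were in this release. Shares have exact Clopper-Pearson intervals, levels exact Poisson intervals and ratios exact conditional binomial intervals, all at 95% (scipy 1.17.1, pandas 2.3.3, pysam 0.24.0). They cover counting error only, and PCR copies that were left are not independent molecules. The steps were tested on simulated data.

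All 10 members are named. Of the pathway lists, the text names the genes with the highest DoHH-2 level and those over 2-fold different whose interval leaves out 1, and others chosen after their values were seen. Sequences were taken at the highest DoHH-2 positions of members outside chromosome 8 with at least 10 counts on the mRNA. Those of XIAP, CFLAR and ERCC5 are left out for their low counts, and 2 others that met this rule and some other items are not reported here. The GM01953 and intron sequences of BCL2 were chosen after their values were seen. For each member with at least 50 mRNA counts, genes of the most similar regional shares are named. The members, lists and tests were chosen with earlier results of these data known.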

Additional observations from a re-analysis of the deposited data

How the results depend on the processing

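No paired analysis was possible because the deposited tables pool the replicates of each line, and for the same reason no replicate could be left out in turn. Without an FDR threshold 10 members rather than 7 passed 20 counts in DoHH-2, and of these 10 only 4 did at GM01953 depth, a setting added after seeing the data, while above 50 counts only 1 was bound in GM01953, where 3 passed 20. The shares of all coding genes at these alternative settings are not given here. The number of members over 2-fold higher in DoHH-2 was 2 rather than 1 relative to counts outside histone genes, at sites only, on MANE Select exons, with a mean of at least 10 CPM and with no filter. The added member was DAXX in the first 3 of these (2.13, no GM01953 site counts, and 2.40) and XIAP, with 2 counts in GM01953, in the last 2. BCL2 exceeded 2-fold in each. Over 2-fold lower were 2 members at sites only (BCL2L1, 0.175, and CFLAR, 0.122) and 0 when positions were counted in place of cDNAs, where the median log2 ratio turned to -0.14 from 0.12. The members' 3′ UTR share of 57.1% became 60.6% at sites only, 55.3% on the longest coding transcript and 47.6% without BCL2, also added after seeing the data. The share off MANE Select exons, 25.2%, became 31.6% with each position counted once, 10.5% at sites only and 11.0% without BCL2, likewise added. A count was called unchanged within 1.5 times, a value within its interval and the median log2 ratio within 0.162. Of 84 alternative values, 64 stayed unchanged, 19 moved and 1 reversed. The cause of these shifts was not tested. With 2 to 25 counts for 7 of the 10 members in GM01953, depth there limits every ratio.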
